A study of Caenorhabditis elegans with 4 samples.

Results

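The regions described here are the binding sites of MRE-11 on chromosome II of Caenorhabditis elegans. They were chosen by position alone, as every peak that the authors' whole-series list places on chromosome II, and number 1793 of 11473 nuclear peaks. Of the 1793 peaks, 630 (35.1%, 95% Wilson interval 33.0% to 37.4%) were overlapped by at least 1 bp by a peak in both ChIP replicates and are called reproducible below. On the other 4 autosomes together this background share was 37.2% (3028 of 8148 peaks).

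All libraries came from the strain fem-2(b245), genotype fem-2(b245)III, in hermaphrodites labelled as young adults with a germline and kept at 20 degrees Celsius. The growth protocol in the labels describes synchronized batches grown until gravid and collected by flotation on sucrose, so many worms were pooled, and somatic and germline nuclei were not separated. The stage label and the growth protocol thus describe different ages. The frozen worms were ground before crosslinking, which used EGS first and formaldehyde in a later step together with EGS. fem-2 is a gene needed for male development, and no group with another genotype or without MRE-11 was among the values used. There were 2 ChIP libraries, made with 1 affinity-purified rabbit polyclonal antibody against MRE-11, and 2 input libraries, which were not analysed here. The data are lists of peaks with no read counts, so the depth behind each peak is unknown.

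MRE-11 is the nuclease of the conserved complex it forms with RAD-50. In worm meiosis this complex acts both in making the programmed DNA double-strand breaks and in resecting them for repair by recombination. C. elegans chromosomes have no single centromere. Instead each carries a pairing centre near 1 end, where zinc-finger proteins bind repeated motifs and connect the chromosome to the nuclear envelope while homologues find each other. The pairing centre of chromosome II is at its left end and is bound by ZIM-1, which also binds that of chromosome III. Genes are denser in the central part of each autosome, and crossovers are more frequent on the arms.

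The first question was how the sites lie along the chromosome. Chromosome II was taken to end at base 15279342, the last base covered by any peak. The arms were the outer 25% at each end, so the left arm ran to base 3819835 and the right arm began after base 11459506. The left arm held 91 reproducible peaks, the centre 342 and the right arm 197. Per Mb these were 23.8 on the left arm, 44.8 in the centre and 51.6 on the right arm. The centre and the right arm were therefore close to each other, and the left arm had fewer than either. A density this low was also found on V, with 25.8 reproducible peaks per Mb on its left arm and 21.4 on its right arm.

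Each replicate list, taken alone, showed the same order. Replicate 1 had 25.4 peaks per Mb on the left arm, 45.6 in the centre and 51.0 on the right arm. Replicate 2 had 35.3, 66.9 and 71.2 peaks per Mb in the same order. The right arm had 2.01 times as many peaks as the left in replicate 1 and 2.01 times as many in replicate 2, and 2.16 times as many among reproducible peaks. The 2 replicates thus gave the same ratio, although replicate 2 had 918 peaks on the chromosome and replicate 1 had 640.

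**Figure D1:**
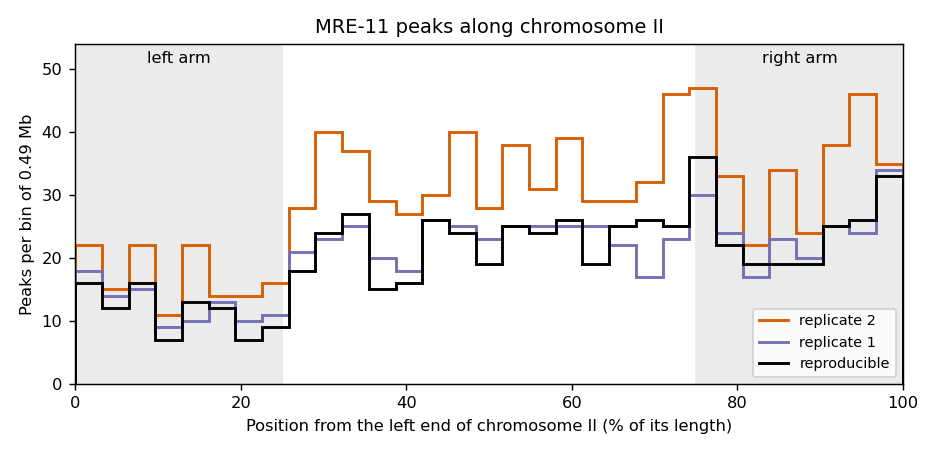
Peaks per bin along chromosome II, in 31 equal bins of 0.493 Mb, against position from the left end in percent of the chromosome's length. The lines are the reproducible peaks and the lists of replicates 1 and 2, and the grey bands are the arms. All 3 lines are low over the left arm and rise just beyond it.

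The low density of the left side extended just beyond the arm. In the first 9 of 31 bins, up to base 4435938, reproducible peaks numbered between 7 and 18 per bin, with a median of 12. In the other 22 bins they numbered between 15 and 36, with a median of 24.5. The place of this division was chosen after the counts were seen, and the ranges of bin counts on its sides overlapped. Before it there were 24.8 reproducible peaks per Mb and after it 48.0. Replicate 1 went from 27.3 to 47.9 per Mb across the same point and replicate 2 from 37.0 to 69.5. The sparsest bins were II 1478647 to 1971528 and II 2957293 to 3450174, with 7 reproducible peaks each. The densest was II 11336287 to 11829168, at the border of the right arm, with 36. The next densest, with 33, was the last bin of the right end. Over the 31 bins the counts of the 2 replicates were correlated, with r (Pearson) at 0.82 and rho (Spearman) at 0.81, as a description only, since neighbouring bins are not independent.

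To locate the emptiest and fullest parts, a stretch of 25% of the chromosome was slid along II in steps of 10 kb. Such a search finds an emptiest stretch in any list, so it cannot tell a step from a slope. The stretch with fewest reproducible peaks ran from 1.44% to 26.4% of the length and held 84 peaks, 13.3% of those on the chromosome. The emptiest stretch of the replicate 1 list lay at 0.458% to 25.5% and that of replicate 2 at 1.44% to 26.4%. The fullest stretch began at 54% of the length and held 205 reproducible peaks, or 32.5%. Its place was not shared by the replicates, since the fullest stretch began at 53.9% in replicate 2 and at 40.8% in replicate 1. On I, IV and V the emptiest stretch of reproducible peaks lay towards the right end, which on those chromosomes is the pairing centre end. On III it began at 64.6% of the length, on the side away from the pairing centre, and in replicate 2 it lay at the left end instead.

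The arm contrast on II was then set against the other autosomes. Of the reproducible arm peaks of II, 31.6% (91 of 288, 95% Wilson interval 26.5% to 37.2%) lay on the left arm. On I, III, IV and V together 55.5% did (780 of 1405, 52.9% to 58.1%). The difference was -23.9 percentage points (95% interval -29.6 to -17.8; two-sided Fisher's exact test, p = 1.42e-13, adjusted p = 9.96e-13 over 7 comparisons). The left share was lowest on II in all of the lists: among reproducible peaks it was 49.5% on III, 54% on IV, 54.7% on V and 64.5% on I. On I, IV and V the pairing centre lies at the right end, so the pooled left arms mix both kinds of end. Their right arms also held fewer reproducible peaks than their left arms: 131 against 238 on I, 166 against 195 on IV and 112 against 135 on V. On III, with its pairing centre at the left, the left arm held 212 and the right arm 216. A difference between chromosomes aligned by pairing centre end was not tested. The test counts each peak as a separate observation, although peaks lie in clusters, and the contrast was chosen with its direction already known. When each 50 kb window holding a peak was counted once, the difference shrank to -11.3 points and no longer passed after adjustment (39.8% against 51.2%; Fisher's exact p = 0.0425, adjusted p = 0.149).

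**Figure D2:**
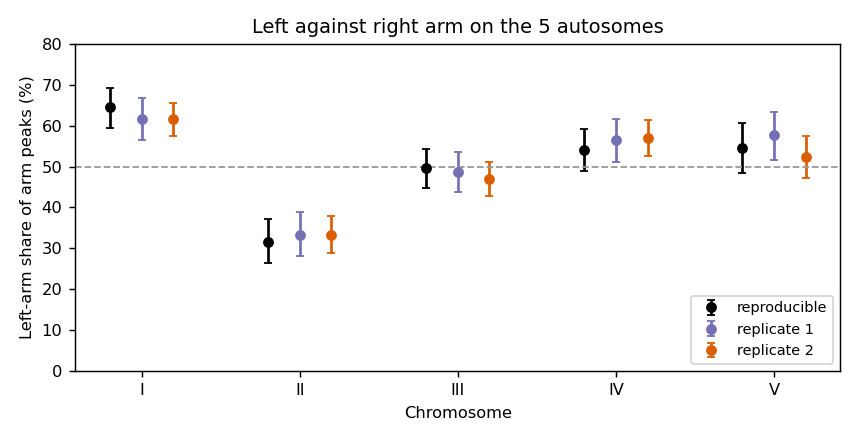
Share of the arm peaks that lie on the left arm, in percent, for each autosome, with 95% Wilson intervals. Points are the reproducible peaks and the lists of replicates 1 and 2, and the dashed line marks equal arms. Chromosome II lies between 31.6% and 33.2% in the 3 lists, and the other autosomes lie between 46.9% and 64.5%.

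The left arm of II had both more empty windows and fewer peaks in those that were occupied. Reproducible peaks fell in 43 of its 76 windows of 50 kb, against 65 of 77 on the right arm and 125 of 153 in the centre. An occupied window held 2.07 reproducible peaks on the left arm, 3.05 on the right arm and 2.74 in the centre. Replicate 1 occupied 49 windows of the left arm and replicate 2 occupied 56, against 68 on the right arm in each. With every whole-series peak, weak ones included, 71 of the 76 left windows were occupied, at 3.97 peaks per occupied window, against 7.26 on the right arm. Most windows of the left arm thus held at least 1 whole-series peak, at lower numbers per window than on the right.

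Both arms together were not set apart on II. They held 45.7% of its reproducible peaks (41.9% to 49.6%) and 46.4% of those on the other autosomes. The difference was -0.69 points (95% interval -4.93 to 3.60) and did not pass (two-sided Fisher's exact test, adjusted p = 0.759). This pooled share adds the sparse left arm of II to its denser right arm, so it cannot show where on II the contrast lies. Coverage followed the counts: reproducible peaks covered 1.98% of the left arm, 4.05% of the centre and 4.51% of the right arm. On V they covered 2.15% of the left arm and 1.70% of the right arm. At the extreme ends of II, the outermost 5% of the length held 25 reproducible peaks on the left and 41 on the right.

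The next question was whether the sites of the left arm were also weaker or less often found in both replicates. Of the 290 whole-series peaks on the left arm, 91 were reproducible (31.4%, 26.3% to 36.9%), and of the 531 on the right arm 197 were (37.1%, 33.1% to 41.3%). The difference of -5.72 points (95% interval -12.3 to 1.13) did not pass (two-sided Fisher's exact test, p = 0.108, adjusted p = 0.155). It stayed negative in all 4 alternatives, at -9.66 to -4.17 points, and none passed after adjustment. Without replicate 1 it was -7.72 points, with a 95% interval that was wholly negative (-14.8 to -0.588). Of the replicate 1 peaks, 78.4% on the left arm and 81.5% on the right were overlapped by replicate 2. Of the replicate 2 peaks, 63.7% on the left and 65.8% on the right were overlapped by replicate 1. The shares found again in the other replicate thus had overlapping intervals on the arms, while the numbers of peaks differed by a factor of 2.01. The score is a value written by the authors' peak caller, and is used here only to rank peaks in 1 list. The scores gave no single order of the arms. Reproducible peaks had a median whole-series score of 42.9 on the left arm, 49.2 in the centre and 55.4 on the right arm. In the replicate 2 list the median was also lower on the left arm, at 160.2 against 301.2 on the right. In the replicate 1 list it was higher on the left arm, at 324.5 against 272.7. These medians were not tested.

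The arm imbalance ran through the range of scores. All autosomal whole-series peaks were divided into 5 equal score classes. In the lowest class II had 57 peaks on the left arm and 109 on the right, and in the highest 44 and 112. The classes between gave 70 and 96, 53 and 117, and 66 and 97. The right arm had more peaks in all 5 classes. With the other autosomes pooled, the left arm had more in all 5, from 376 against 361 in the lowest class to 430 against 314 in the highest. III alone went the other way over all scores, with 497 whole-series peaks on its left arm and 553 on its right.

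Reproducibility on II rose with score. In the lowest of the 5 classes 5.54% of the II peaks (20 of 361) were reproducible, in the middle class 20.9% and in the highest 92.6% (323 of 349, 89.3% to 94.9%). Elsewhere on the autosomes these were 5.84%, 17.7% and 95.2%. Peaks of higher score were also wider, and a wider peak meets an overlap of 1 bp more easily. Whether the whole-series list pools the reads of the replicates is not stated, so score and overlap may not be independent. The rise was not tested. Over all scores the reproducible share on II differed from the other autosomes by -2.03 points (95% interval -4.44 to 0.444), which did not pass (two-sided Fisher's exact test, p = 0.111, adjusted p = 0.155). Against III alone it passed, at -5.51 points (adjusted p = 0.00160), and against V alone its direction turned, to 3.66 points (adjusted p = 0.0635, Fisher's exact tests).

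The peaks of II that were not reproducible fell into 3 kinds. Replicate 1 alone overlapped 302, with a median width of 309.5 bp and a median score of 10.1. Replicate 2 alone overlapped 342 (294 bp, score 12.4), and neither replicate overlapped 519 (216 bp, score 6.03). Reproducible peaks were wider and of higher score, at 645 bp and 49.3. Of the peaks in 1 replicate only, 46.9% were of replicate 1 on II, against 42.1% on the other autosomes. This difference of 4.78 points (0.54 to 9.05) did not pass after adjustment (two-sided Fisher's exact test, p = 0.0304, adjusted p = 0.106).

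The replicates drew the same site at different widths. The II peaks had a median width of 1333 bp in replicate 1 (quartiles 1027.75 and 1898.5 bp) and of 688 bp in replicate 2 (539.25 and 1011 bp). At 575 of the 630 reproducible sites the replicate 1 peak was the wider, with a median ratio of 1.62. The centres of the 2 replicate peaks were a median of 117 bp apart. Their scores had a Spearman rho of 0.52 over the 630 sites, which shared 506 replicate 1 peaks and 566 replicate 2 peaks, so the points are not independent. For the other autosomes rho was 0.50 and the median width ratio 1.65.

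Spacing was examined as the number of bases between successive reproducible peaks. The 629 gaps on II had a median of 9360 bp, with quartiles at 1116 and 31981 bp. The median gap was 17171.5 bp on the left arm, 9024 bp in the centre and 6558.5 bp on the right arm. On the other autosomes the left arm had the shortest median gap of the 3 parts, at 4980 bp, against 8295.5 bp in the centre and 8738 bp on the right arm, when the 4 chromosomes were pooled. The left arm also had the shortest median gap on I, III and IV taken singly. On III and IV, however, the right arm was below the centre (5237 against 7190 bp, and 8506.5 against 10356 bp). On V the median gap was 17204.5 bp on the left arm, 11223 bp in the centre and 17570 bp on the right arm. Both arms of V were thus spaced about as widely as the left arm of II. The replicates agreed on the order within II. Replicate 1 had median gaps of 18277, 11432 and 10601.5 bp on the left arm, in the centre and on the right arm. Replicate 2 had 13579.5, 5783 and 5233 bp.

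**Figure D3:**
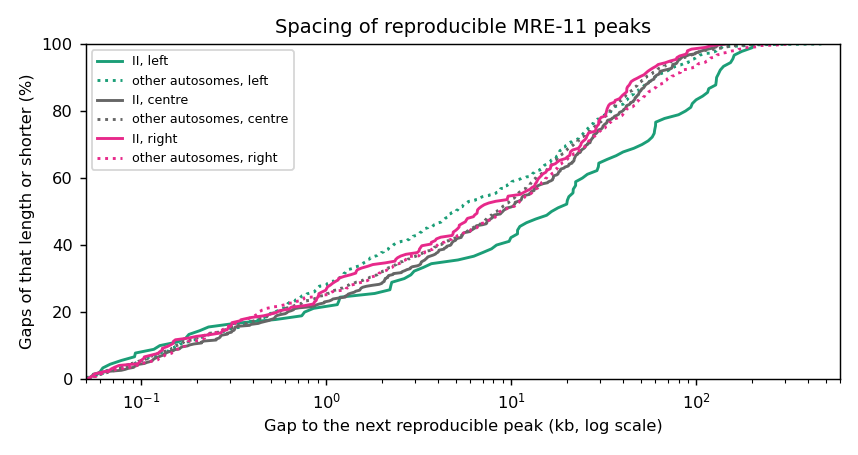
Cumulative share of gaps between successive reproducible peaks, in percent, against gap length in kb on a log scale, for the left arm, centre and right arm of chromosome II (solid) and of the other autosomes together (dotted). At 2000 bp and at 5000 bp the left arm of II lies lowest, with 25.6% and 34.4% of its gaps. Its median gap was 17171.5 bp, against 4980 bp on the pooled left arms of the other autosomes and 17204.5 bp on that of V alone.

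Most short gaps lay inside 1 peak of replicate 1, whereas a minority lay inside 1 peak of replicate 2. On II 188 gaps (29.9%) were of at most 2000 bp, against 33.5% on the other autosomes, a difference of -3.58 points (95% interval -7.42 to 0.470) that did not pass (two-sided Fisher's exact test, p = 0.0844, adjusted p = 0.155). Against III alone the difference was -6.67 points and passed (adjusted p = 0.0270, Fisher's exact test). In 124 of these 188 gaps both flanking peaks lay in the same replicate 1 peak, and in 64 in the same replicate 2 peak. In 62 the flanks lay in different peaks of each replicate. With the reproducible peaks inside 1 replicate 1 peak joined, II had 506 sites, with a median gap of 16881 bp. The order of the parts was kept, at 23228 bp on the left arm, 16881 bp in the centre and 14076.5 bp on the right arm.

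Clusters were runs of reproducible peaks with gaps of at most 5000 bp. On II 411 of the 630 peaks (65.2%) were in 152 clusters, of which 94 were pairs, and 219 stood alone. The share in clusters was 60.4% on the left arm, 65.2% in the centre and 67.5% on the right arm, and on the other autosomes it ran from 60.9% on V to 71.0% on III. Clusters of 5 or more peaks numbered 15 on II, of which 9 were in the centre, 5 on the right arm and 1 on the left arm. The largest on II had 8 peaks, whereas the largest on III had 17.

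The 5 leading clusters of II were not resolved alike by the replicates. The longest, II 10541471 to 10563681 (22211 bp), held 8 reproducible peaks covering 82.4% of its span, but only 2 replicate 1 peaks and 7 replicate 2 peaks. A single replicate 1 peak of 19375 bp filled most of it. The cluster at II 13813962 to 13830002 (16041 bp) also held 8 reproducible peaks, and here each list resolved them, with 8 peaks in replicate 1 and 8 in replicate 2. Its scores lay between 22.5 and 101.7 with a median of 79.8, and 41.3% of the span was covered. The clusters at II 8560783 to 8578078 and II 5330073 to 5340985 had 7 peaks each, over 17296 bp and 10913 bp, with median scores of 30.3 and 15.0. Replicate 1 had 4 and 3 peaks in these 2 clusters, and replicate 2 had 5 in each. That at II 10860723 to 10873127 had 5 peaks, 1 of them at the maximum score, with 4 replicate 1 peaks and 6 replicate 2 peaks.

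Long gaps were concentrated on the left arm. II had 27 gaps of 100 kb or more, of which 15 were centred on the left arm, 9 in the centre and 3 on the right arm. Together those of the left arm made up 57.1% of its length, against 14.3% in the centre and 9.76% on the right arm. On the pooled left arms of the other autosomes such gaps made up 27.5%, but on V they made up 47.1% of the left arm and 57.2% of the right arm. The right arm of V thus matched the left arm of II. The 5 longest gaps of II were all on the left arm. They were II 2600353 to 2804902 (204550 bp), II 3165311 to 3365343 (200033 bp), II 858044 to 1033631 (175588 bp), II 1501359 to 1661316 (159958 bp) and II 3366241 to 3523546 (157306 bp).

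None of these 5 gaps was free of whole-series peaks. They held 11, 18, 8, 3 and 9 of them, with highest scores between 21.2 and 45.9. Replicate 1 had 1, 2, 2, 2 and 0 peaks of its own inside them, and replicate 2 had 2, 7, 1, 0 and 4. The longest gap within the replicate 1 list on II, at 2600708 to 2801574 (200867 bp), nearly coincided with the longest gap of reproducible peaks. In replicate 2 the longest was II 873747 to 1033593 (159847 bp), inside the third longest. The longest gap on any autosome lay on V, at 473323 bp. V also had 57 gaps of 100 kb or more, over 42.0% of its length, against 23.9% of II.

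Sites of maximum score came next. The highest score in the whole-series list, 163.35, was shared by 29 reproducible peaks of II (4.60%, 3.22% to 6.53%), and on the other autosomes by 4.16% (126 of 3028). Over all nuclear chromosomes the share was 4.15%. The difference of 0.44 points (95% interval -1.14 to 2.48) did not pass (two-sided Fisher's exact test, adjusted p = 0.686). Of the 29, 9 were on the left arm, 8 in the centre and 12 on the right arm. Per Mb these were 2.36, 1.05 and 3.14. On the left arm they were 9.89% of the reproducible peaks (5.29% to 17.7%), against 2.34% in the centre (1.19% to 4.55%, 8 of 342) and 6.09% on the right arm (3.52% to 10.3%). The left arm thus had 82 peaks below the maximum where the right arm had 185, and 9 at the maximum where the right arm had 12. This split was noticed after the values were seen and was not tested. A higher share on an arm than in the centre was not particular to II or to sparse arms. It was 10.8% on the right arm of IV (18 of 166) against 4.34% in its centre, and 6.87% on the right arm of I against 1.61%. On the left arms of I and III, which were not sparse, it was 5.04% and 5.66%, against 1.61% and 2.08% in their centres. On V the right arm, at 3.57%, was below the centre, at 4.11%.

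The replicate lists put the same kind of peaks on the left arm. Peaks with a score of 3100 or more, the value at which many replicate peaks were tied, were 11 of 97 on the left arm in replicate 1 (11.3%), 19 of 348 in the centre (5.46%) and 15 of 195 on the right arm (7.69%). In replicate 2 they were 14 of 135 (10.4%), 21 of 511 (4.11%) and 20 of 272 (7.35%). On the left arms of the other autosomes the shares were 7.40% and 4.43%, and on their right arms 8.64% and 6.59%. The Wilson intervals for the left and right arm of II overlapped in both replicates.

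The 10 named sites are those of maximum score with the greatest width. The site at II 1983453 to 1986218 on the left arm was 2766 bp wide in the whole-series list, 3302 bp wide in replicate 1 and 2898 bp wide in replicate 2. The site at II 11966687 to 11969102 on the right arm was 2416 bp wide, and 3034 bp and 2424 bp in the replicates. Both had a score of 3100 in each replicate. The others were II 856268 to 858043 on the left arm, II 9745406 to 9747304, II 9891289 to 9893121 and II 10657812 to 10659658 in the centre, and II 12737457 to 12739564, II 14389420 to 14391034, II 14814177 to 14816034 and II 15141409 to 15143098 on the right arm. These 8 were between 1615 and 2108 bp wide.

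At 2 of the 10 sites the widths in the 3 lists stood apart from the rest. The site at II 15141409 was 1690 bp wide in the whole-series list but lay in a replicate 1 peak of 5646 bp and a replicate 2 peak of 5110 bp. The next reproducible peak to its left was 56 bp away. The site at II 12737457 was 2108 bp wide, and it was the only 1 of the 10 that was wider in replicate 2 (3726 bp) than in replicate 1 (2074 bp). No 2 of the 29 maximum-score sites of II lay in the same replicate peak, although some shared one with a reproducible peak of lower score. Of the 29 sites, 13 had a score of at least 3100 in both lists. The lowest scores of any of the 29 were 1772.68 in replicate 1 and 2060.88 in replicate 2.

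**Figure D4:**
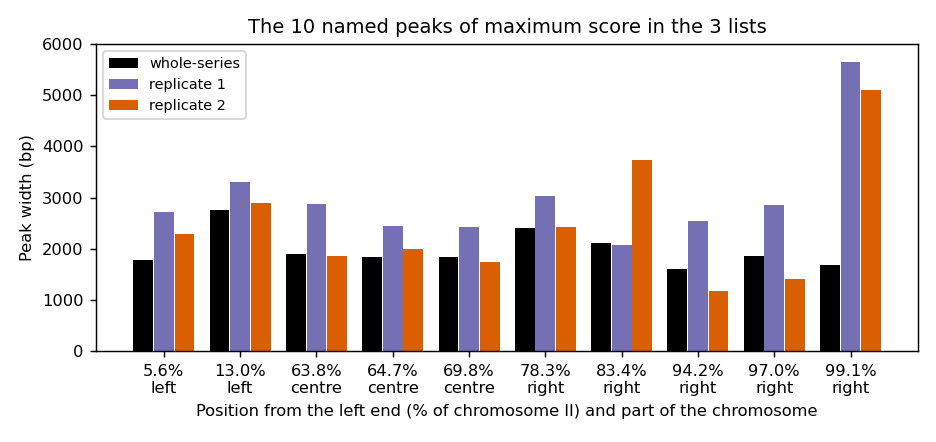
Width in bp of the 10 named maximum-score peaks of chromosome II in the whole-series list and in replicates 1 and 2, ordered by position from the left end. Replicate 1 gave the widest peak at 9 of the 10, and the site at 99.1% of the length lay in replicate peaks of over 5000 bp.

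Several maximum-score sites stood at the edge of a long gap. Of the 27 gaps of 100 kb or more on II, 8 (29.6%) had a maximum-score peak on at least 1 side, whereas 55 of all 629 gaps did (8.74%). On the other autosomes these shares were 11.6% (14 of 121) and 7.94%, and on IV alone 27.3% (9 of 33). Counted by site, 8 of the 29 maximum-score sites of II had a gap of 100 kb or more beside them, and 44 of the 601 other reproducible peaks did (27.6% and 7.32%). Elsewhere on the autosomes they were 11.1% and 7.65%. By zone, 5 of 9 maximum-score sites on the left arm bordered such a gap, and 24 of 82 others did (29.3%). In the centre 3 of 8 did, against 14 of 334 others (4.19%), and on the right arm 0 of 12 did, against 6 of 185 (3.24%). The left arm thus held 5 of the 8 sites and also had the highest share among the other peaks. The pattern was noticed after the values were seen, was shared with IV, and rests on 8 sites.

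The site at II 3365344 to 3366240 was the most isolated of the 29. It was 897 bp wide, with no other reproducible peak for 200033 bp on its left or for 157306 bp on its right. It was found in replicate 1 as 1411 bp with a score of 2182.02 and in replicate 2 as 982 bp with a score of 3100. The site at II 2599101 to 2600352 bordered the longest gap of the chromosome, but another reproducible peak lay 117 bp to its left. In the centre, the sites at II 9745406 and II 9891289 faced each other across a gap of 143984 bp. That gap held 29 peaks that were not reproducible, of which 15 were overlapped by replicate 1 only. These came from 3 replicate 1 peaks, of which 2 were broad, II 9807281 to 9812356 (5076 bp, 6 whole-series peaks) and II 9814333 to 9821655 (7323 bp, 8 whole-series peaks). No replicate 2 peak overlapped either of them.

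**Figure D5:**
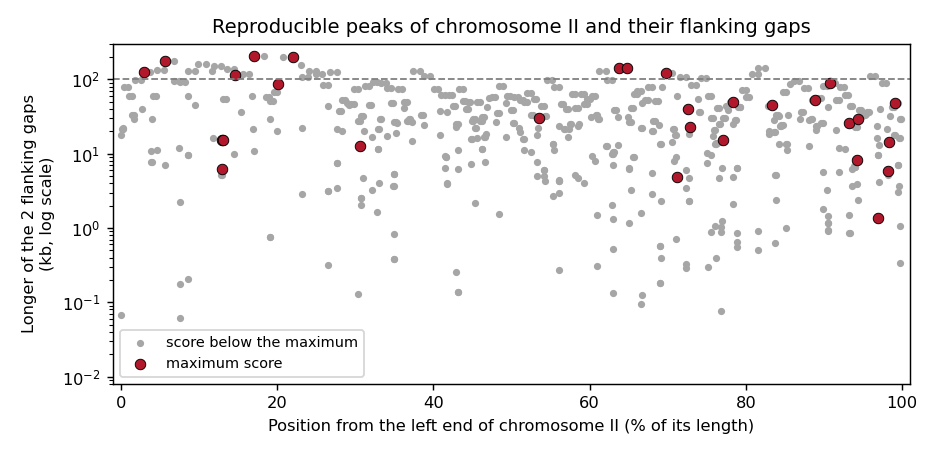
For each reproducible peak of chromosome II, the longer of its 2 flanking gaps in kb on a log scale, against position from the left end in percent of the length. Red points are the 29 peaks of maximum score and the dashed line marks 100 kb. Of the 29, 8 lie above that line, 5 on the left arm and 3 in the centre.

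Most maximum-score sites also stood apart from close neighbours. The nearest reproducible peak was a median of 6263 bp from a maximum-score site on II, and 1784 bp from the other reproducible peaks. Within 2000 bp there was a neighbour for 8 of the 29 (27.6%) and for 307 of the 601 others (51.1%). Outside II the autosomal shares were 46.0% and 54.6%. The zones of II also differed in this. In the centre none of the 8 maximum-score sites had a neighbour that close, against 168 of 334 others (50.3%), and on the right arm 4 of 12 did, against 102 of 185 (55.1%). On the left arm there was no such separation, with 4 of 9 maximum-score sites (44.4%) and 37 of 82 others (45.1%). The sharing of 1 wide replicate peak by several sites also moved with score, and its part in this count was not tested. When the II sites were divided into 4 equal score classes, 93 of 158 in the lowest (58.9%) shared their replicate 1 peak with another reproducible peak, and in the highest class 35 of 158 did (22.2%).

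Width rose with score, although the widest peaks were not those of maximum score. The 29 maximum-score peaks had a median width of 1410 bp and the other 601 one of 623 bp. Reproducible peaks of II had a median width of 645 bp (quartiles 431.75 and 1023.75 bp), and 80 of 630 (12.7%) were at least 1500 bp wide, against 10.8% on the other autosomes. Over the 630 peaks width and score had a Spearman rho of 0.56, as a description. The median width was 598 bp on the left arm, 660.5 bp in the centre and 632 bp on the right arm, a smaller range than the spread of widths within each part. None of the 5 widest peaks had the maximum score.

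The widest was II 10541670 to 10549698 (8029 bp, score 107.05), which lay in the longest cluster. In replicate 2 it spanned 8128 bp, and in replicate 1 it was part of the peak of 19375 bp. The next were II 693604 to 699466 (5863 bp) on the left arm and II 8741897 to 8747534 (5638 bp) in the centre, both with a score of 3100 in each replicate. The remaining 2 were II 10445299 to 10450768 (5470 bp) and II 11756629 to 11761961 (5333 bp). The widest replicate 2 peak on the chromosome, II 14598191 to 14608799 (10609 bp, score 3100), was not among them. It held 6 whole-series peaks, the widest of 6169 bp, and only 1 replicate 1 peak, of 1115 bp, overlapped it.

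Peaks were listed at both tips of the chromosome. The first whole-series peak, II 1 to 448 (score 33.9), began at the first base and was reproducible, within a replicate 1 peak of 1278 bp and a replicate 2 peak of 568 bp. The last whole-series peak, II 15278900 to 15279342 (score 16.8), was in neither replicate. The last reproducible peak was II 15262981 to 15263409. Beyond it replicate 1 had a peak at II 15271102 to 15272441, with a score of 488.67, against 535.06 for the first replicate 1 peak. The right arm, the densest part of the chromosome, had a tip without a reproducible peak, whereas the left arm, the sparsest part, had one at its first base. This contrast of the tips rests on single peaks.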

How the data were processed

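The submitters' processing notes name BWA and the ce10 build for the 2 MRE-11 ChIP libraries. Per the file headers coordinates are in WormBase WS220, and peaks were called with MACS per replicate and with MACS v2 for the whole-series list. For the caller's control, its settings and any pooling of reads for the whole-series list, the answer is not given in the sources used here. The score of each peak was deposited by the authors without a stated scale. Many top scores are tied. The depth of each library is unknown.

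Peaks were placed by their centres. Overlap needed 1 bp. Shares were compared by two-sided Fisher's exact tests with Benjamini-Hochberg adjustment over 7 comparisons. An alternative's p was adjusted with the other 6 unchanged. Wilson and Newcombe 95% intervals cover counting error only. Peaks are not independent, separate cultures for the replicates are not mentioned in the labels, and p-values describe these lists, not worm populations. Only the test of the left share was checked on simulated lists. Their peaks were drawn independently, without the clusters of the real lists, so the check does not cover clustering. The region, comparisons and alternatives were chosen with earlier results of these data known.

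Named sites were the 10 of highest score (ties by width), the 5 widest, the first and last, the 5 longest gaps, the 5 largest clusters and the extreme bins; any other was chosen after its values were seen. Peaks were not tied to genes or sequence, since a genome in WS220 coordinates was not used. The tools were scipy 1.17.1 for the tests, pandas 2.3.3 and numpy 2.4.6 for the tables and matplotlib 3.10.9 for the figures, under Python 3.11.15.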

Additional observations from a re-analysis of the deposited data

How the results depend on the processing

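Of 59 recomputed comparisons, 49 kept both direction and call. The lower left share of the arm peaks of II kept its direction in all 12 alternatives (-32.9 to -11.3 points). It fell short of the adjusted threshold with 50 kb windows counted once (-11.3 points), and leaving out 1 replicate gave -22.5 and -21.5. Against III alone, the reproducible share (-5.51 points) and the share of close neighbours (-6.67) passed, as did the replicate 1 only share against I alone (10.2). Directions turned for values that did not pass. The reproducible share was 0.47 points without replicate 2 (6 of the replicate omissions were chosen after seeing the data), -2.67 without replicate 1, and 3.66 against V alone. The arm share was 0.10 points without replicate 2, -0.81 without replicate 1, 2.08 with arms of 10% and 5.35 against V alone. The share with the maximum score was -1.37 points against IV alone. Causes were not tested, and unknown depth leaves peaks of 1 replicate unresolved between lack of signal and lack of reads. No paired analysis was possible because values exist for the ChIP group alone: the inputs carrying the same replicate numbers were not analysed here.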
